A study of Mus musculus with 8 samples.

Results

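The 10 genes described here encode costimulatory receptors and members of the TNF receptor family that activated T cells carry at their surface: Fas, Tnfrsf1a, Tnfrsf1b, Tnfrsf4, Tnfrsf18, Tnfrsf9, Tnfrsf8, Cd27, Cd28 and Icos. They were chosen by name and matched by exact gene symbol, and all 10 were found among the 24421 genes of the deposited tables. Transcripts were counted by 3' RNA-seq, which reads the 3' ends of messenger RNAs, in mouse CD8+ T cells that lacked LKB1 (4 libraries, genotype LKB1-deficient) or were LKB1 wild type (4 libraries, the controls). In both groups naive T cells had been stimulated for 48 hours on plates coated with antibodies to CD3 and CD28, so CD28 itself was engaged by antibody in every library. LKB1, the product of Stk11, phosphorylates and switches on AMPK and its relatives, kinases that adjust metabolism and growth. The labels used here do not state which Cre or promoter drove the deletion, the age or strain of the mice, or whether separate animals gave the replicates. The p-values thus reflect no more than the variation among these libraries, which may be technical.

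Costimulatory receptors give T cells the second signal that antigen alone does not provide. CD28 and ICOS belong to the immunoglobulin superfamily and signal through phosphatidylinositol 3-kinase. The TNF family receptors OX40 (Tnfrsf4), GITR (Tnfrsf18), 4-1BB (Tnfrsf9), CD30 (Tnfrsf8) and CD27 recruit TRAF adaptors and activate NF-kB, and most of them appear at the surface only after activation. Fas and TNFR1 (Tnfrsf1a) carry a death domain and can instead assemble caspase-activating complexes, Fas through the adaptor FADD and caspase-8.

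Of the 10 receptor genes, 9 had enough counts to be tested, 1 was higher and 1 lower in LKB1-deficient cells, and 7 did not pass an adjusted p of 0.05 (edgeR quasi-likelihood test, Benjamini-Hochberg adjusted over all 10396 genes tested). The gene that was lower was Fas. The gene that was higher, Tnfrsf8, entered the test through its LKB1-deficient libraries alone, so its call and its lack of overlap are descriptions and support nothing. Of all genes tested, 12.4% were called higher and 10.1% lower, so counts of 1 among 9 are near the background. The median log2 fold change of the 9 receptors was -0.21, with 3 above 0 and 6 below, against 0.00 over all genes tested. The LKB1-deficient libraries lay wholly above the controls for 1 receptor (Tnfrsf8) and wholly below them for 2 (Fas and Icos), against 12% and 14.1% of all genes tested.

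The upstream sequences of Fas and Tnfrsf8 are shown because these were the receptors past the threshold. They are the 250 bases before the RefSeq transcription start, from the GRCm38.p6 assembly, written 5′ to 3′ on the strand of the gene. Capitals mark matches, on either strand, to the AP-1 motif TGANTCA, the GAS motif TTCNNNGAA, the SP1 box GGGCGG, the CRE half-site TGACG and the NF-kB consensus.
Fas, chr19:34290409-34290658, plus strand: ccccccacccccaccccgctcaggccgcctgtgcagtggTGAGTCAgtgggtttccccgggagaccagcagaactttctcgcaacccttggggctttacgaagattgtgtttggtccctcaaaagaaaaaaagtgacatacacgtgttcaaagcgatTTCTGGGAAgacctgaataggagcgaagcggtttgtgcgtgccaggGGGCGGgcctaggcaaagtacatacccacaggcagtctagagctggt
Tnfrsf8, chr4:145315165-145315414, minus strand: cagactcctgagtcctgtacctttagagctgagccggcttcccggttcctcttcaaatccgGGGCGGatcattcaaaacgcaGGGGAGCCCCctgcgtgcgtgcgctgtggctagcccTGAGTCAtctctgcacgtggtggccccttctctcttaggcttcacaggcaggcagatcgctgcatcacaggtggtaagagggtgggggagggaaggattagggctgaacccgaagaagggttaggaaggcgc

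Both windows held 1 AP-1 match, which starts 211 bases before the transcription start in Fas and 132 bases before it in Tnfrsf8. Such a match was present in 6.75% of 32851 mouse windows of this length. Both also held an SP1 box (32.7% of windows). The Fas window held a GAS match (7.02% of windows), and the Tnfrsf8 window held an NF-kB consensus match (3.9% of windows). Such matches were not limited to these receptors. Tnfrsf9, not past the threshold, had AP-1, GAS, SP1 box and NF-kB consensus matches over its windows. Tnfrsf1a, Tnfrsf1b and Tnfrsf18 had a GAS match, and Tnfrsf1b also had SP1 box matches. Tnfrsf4 and Cd27 had none of the marked motifs. RefSeq windows were matched for 8 of the 10 receptors, Cd28 and Icos being those without one. A match of letters is a description and says nothing of binding in these cells.

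Gene counts came to 3454388 to 6356125 per LKB1-deficient library and 7090252 to 12211930 per control library, so low genes are measured less precisely in LKB1-deficient cells. LKB1-deficient replicates 2 and 4 stood apart, at 51.7 and 54.4 on the first principal component, against 12.5 and 6.79 for LKB1-deficient replicates 1 and 3 and -37.9 to -21.7 for the controls. Of 8 CD8 T cell markers none was higher and 3 were lower by edgeR, against 12.4% higher and 10.1% lower over all genes tested. None was higher at an unadjusted p of 0.05, by DESeq2 or by limma-voom. The summed level of these markers was 4118 to 5151 CPM (counts per 1000000 gene counts, scaled with TMM factors) in LKB1-deficient libraries and 5311 to 6754 CPM in controls. Cd8a averaged 425 CPM in LKB1-deficient cells and 721 CPM in control cells (adjusted p = 0.0156, edgeR), and Cd8b1 404 CPM in LKB1-deficient and 566 CPM in control cells (adjusted p = 0.0709, edgeR). The call of Cd8a ended without LKB1-deficient replicates 2 and 4 (adjusted p = 0.11, edgeR). Cd8b1 passed in 3 of 20 refits. These were without LKB1-deficient replicate 3 (adjusted p = 0.0446, edgeR), with total count scaling (adjusted p = 0.0479, edgeR) and with DESeq2 (adjusted p = 0.0316). For Cd8b1 every LKB1-deficient library was below every control. The 3 markers called lower were Cd8a, Cd3d and Cd3g. Fold changes were below 0 for 6 of the 8 markers and above 0 for 2, Cd3e and Thy1. Cd3e averaged 98.5 CPM in LKB1-deficient and 79.1 CPM in control cells (adjusted p = 0.202, edgeR). Thy1 averaged 1170 and 1043 CPM (adjusted p = 0.4, edgeR). Cd3g, Cd3e and Thy1 were named after their values were seen. The defining markers of other cells, Cd4, Foxp3 and Ncr1, averaged 0.253, 0.255 and 0.255 CPM in LKB1-deficient libraries and 0.554, 0.0731 and 0.178 CPM in control libraries. The 5 CD4 and regulatory T cell markers summed to 9.17 to 14.3 CPM in LKB1-deficient libraries and 14.3 to 18.1 CPM in controls, the 6 B cell markers to 4.88 to 9.0 and 7.47 to 12.9 CPM with Pax5 at 0 in all, the 9 myeloid and dendritic markers to 4.31 to 12.8 and 3.90 to 7.87 CPM, and the 4 NK and gamma-delta T cell markers found to 479 to 731 and 654 to 815 CPM. That last sum is carried by Nkg7 and Eomes, which CD8+ T cells also express; the NK cell marker Klrb1c had 0.563, 2.04, 0.630 and 1.62 CPM in LKB1-deficient replicates 1 to 4, against 0.180, 0, 0.227 and 0.13 CPM in control replicates 1 to 4. The B cell marker Cd22 had 0.315 to 1.13 CPM in LKB1-deficient and 0.0898 to 0.260 CPM in control libraries, while Cd79b, the B cell marker with enough counts to be tested, was lower (adjusted p = 0.0164, edgeR). Klrb1c and Cd22 had at most 7 counts in any library and were not tested; their groups do not overlap, and they were named after their values were seen. The 10 mast cell and basophil markers summed to 13.2, 40.5, 14.3 and 31.3 CPM in LKB1-deficient replicates 1 to 4, against 7.02 to 10.6 CPM in controls, with Mcpt4 at 0 in all and Cpa3 at 2.39 CPM in LKB1-deficient and 0.707 CPM in control libraries on average. In bulk samples fewer cells of a type and less RNA per cell cannot be told apart. Stk11 had a log2 fold change of -0.03 (adjusted p = 0.911, edgeR). The deleted part of Stk11 is not stated in the labels, so its 3' tags do not check the genotype.

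**Figure D1:**
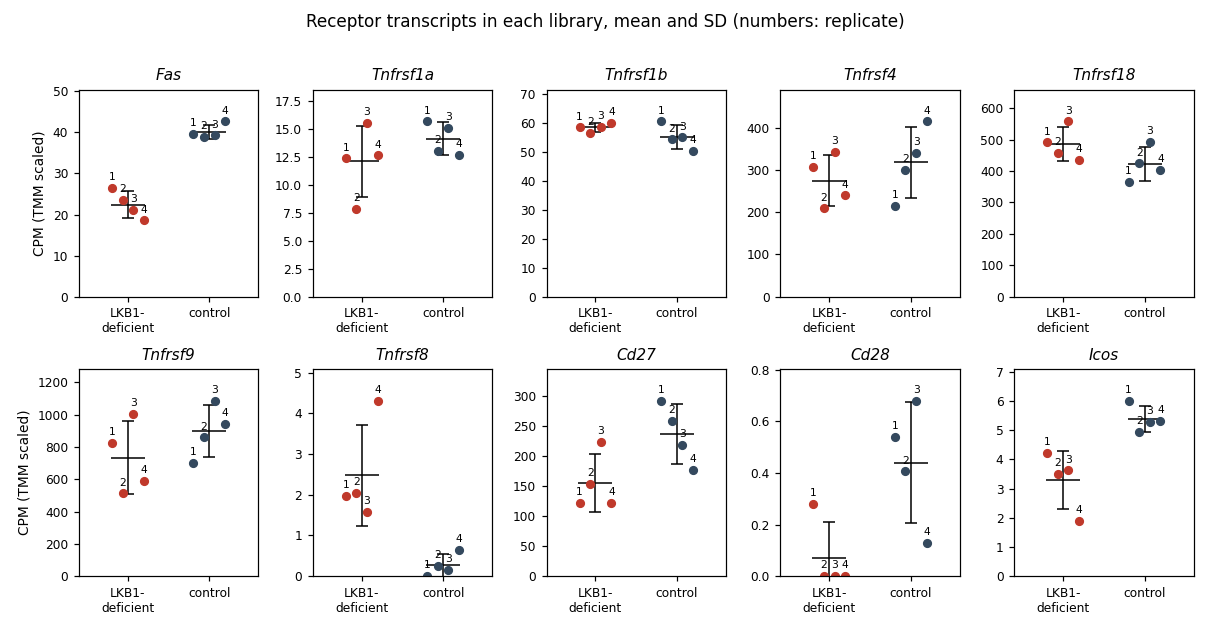
CPM of each of the 10 receptors in every library, LKB1-deficient at left and control at right of each panel, with horizontal lines at the mean and bars of 1 SD (n = 4 each) and replicate numbers beside the points. Fas, Icos and Tnfrsf8 are the receptors whose groups do not overlap, and Cd28 lies at or below 0.681 CPM in all libraries.

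Fas, the death receptor that removes activated lymphocytes, was lower in every LKB1-deficient library than in any control library. It had 26.5, 23.6, 21.1 and 18.6 CPM in LKB1-deficient replicates 1 to 4, against 39.7, 38.9, 39.3 and 42.7 CPM in control replicates 1 to 4. The lowest control thus lay above the highest LKB1-deficient library, and the controls were within a narrow range of each other. Fas averaged 22.4 ± 3.37 CPM in LKB1-deficient cells and 40.2 ± 1.75 CPM in control cells (SD, n = 4 each), with a log2 fold change of -0.84 ± 0.13 (SE), which is 1.79-fold lower (adjusted p = 0.00506, edgeR). The call held in all 20 refits, with log2 fold changes between -1.0 and -0.64, and with LKB1-deficient replicates 2 and 4 both left out the adjusted p was 0.046. Fas lies on chromosome 19 (GRCm38, 34290666 to 34327772, plus strand, a protein-coding gene of 10 exons in its longest transcript).

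Among the genes that act with Fas, its ligand and its main inhibitor were higher in LKB1-deficient cells. Fasl, the Fas ligand, had 43.0, 36.4, 37.9 and 49.1 CPM in LKB1-deficient replicates 1 to 4, against 17.4, 22.5, 31.7 and 28.6 CPM in control replicates 1 to 4, and was 1.66-fold higher (adjusted p = 0.0261, edgeR). The groups did not overlap, but Fasl was not called without LKB1-deficient replicate 4 (adjusted p = 0.0759, edgeR), without control replicate 2 (adjusted p = 0.0552, edgeR) with total count scaling (adjusted p = 0.0659, edgeR), in EU libraries alone (identifiers of replicates 2 to 4; adjusted p = 0.0673, edgeR) or without both LKB1-deficient replicates 2 and 4 (adjusted p = 0.134, edgeR). Cflar, which encodes cFLIP, an inhibitor of caspase-8 activation at the receptor, had 126, 154, 87.7 and 158 CPM in LKB1-deficient replicates 1 to 4, against 47.3, 65.2, 45.3 and 46.4 CPM in control replicates 1 to 4. Every LKB1-deficient library was above every control, and Cflar was 2.57-fold higher (log2 fold change 1.36 ± 0.20, SE; adjusted p = 0.00404, edgeR), a call that held in all 20 refits. Fadd, the adaptor, averaged 14.1 CPM in LKB1-deficient and 15.8 CPM in control cells (adjusted p = 0.516, edgeR), and Casp8, encoding caspase-8, averaged 83.3 and 77.4 CPM (adjusted p = 0.571, edgeR); both were singled out after their values were seen because they complete the complex. All 19 listed death receptor pathway genes, Fas included, were tested. Of these, 2 were higher (Cflar and Tnfrsf10b), 1 was lower (Fas) and 16 did not pass, against 12.4% higher and 10.1% lower over all genes tested. Their median log2 fold change was -0.15 against 0.00 over all genes. Tnfrsf10b, the mouse receptor for TRAIL, averaged 8.51 CPM in LKB1-deficient and 4.04 CPM in control cells (2.09-fold higher, adjusted p = 0.0144, edgeR), but with LKB1-deficient replicates 2 and 4 left out the adjusted p was 0.145.

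**Figure D2:**
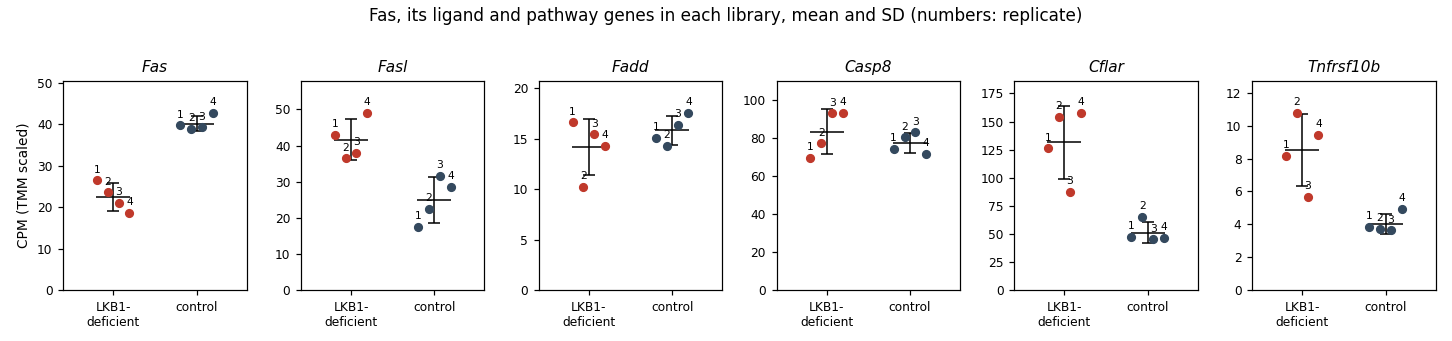
CPM of Fas, its ligand and 4 genes of its signalling pathway in each library, LKB1-deficient at left and control at right, with the mean and SD (n = 4 each) and replicate numbers beside the points. Fas is lower (22.4 and 40.2 CPM on average) while Fasl, Cflar and Tnfrsf10b are higher in LKB1-deficient libraries, and Fadd and Casp8 overlap between the groups.

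The receptors for TNF itself did not pass the test. Tnfrsf1a, encoding the death domain receptor TNFR1, had 12.4, 7.87, 15.6 and 12.7 CPM in LKB1-deficient replicates 1 to 4, against 15.7, 13.1, 15.1 and 12.7 CPM in control replicates 1 to 4. LKB1-deficient replicate 2 was the lowest, replicate 3 lay within the control range, and replicates 1 and 4 were just under the lowest control. Tnfrsf1a had a log2 fold change of -0.21 ± 0.20 (SE, adjusted p = 0.458, edgeR). Tnfrsf1b, encoding TNFR2, which has no death domain and costimulates T cells, had 58.5, 56.5, 58.7 and 60.1 CPM in LKB1-deficient replicates 1 to 4, against 60.6, 54.4, 55.0 and 50.4 CPM in control replicates 1 to 4. The groups overlapped and all libraries lay in a narrow range. Its log2 fold change was 0.08 ± 0.11 (SE, adjusted p = 0.594, edgeR) and took the other sign with upper quartile scaling (-0.01) and total count scaling (-0.08). Tnfrsf1a lies on chromosome 6 (125349362 to 125362484, plus strand) and Tnfrsf1b on chromosome 4 (145213463 to 145246870, minus strand).

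CD30, the receptor encoded by Tnfrsf8 beside Tnfrsf1b on chromosome 4 (145267137 to 145315164, minus strand, 20267 bases from Tnfrsf1b), was counted far more often in LKB1-deficient libraries, although at low levels. It had 7, 7, 10 and 16 counts in LKB1-deficient replicates 1 to 4 and 0, 3, 2 and 5 counts in control replicates 1 to 4. In CPM these were 1.97, 2.04, 1.57 and 4.31 in LKB1-deficient libraries and 0, 0.244, 0.151 and 0.650 in control libraries. All LKB1-deficient libraries lay above all controls, a separation that follows from how the gene entered the test. The controls were sequenced more deeply. Pooled, 40 counts in LKB1-deficient and 10 counts in control libraries correspond to 2.22 and 0.238 CPM of the pooled gene counts. Their ratio was 9.35 (exact 95% interval 4.59 to 21, which covers counting error only and not the selection by the filter). Tnfrsf8 passed the count filter through its LKB1-deficient libraries alone, 4 of which reached the 1.49 CPM required and none of the controls, so that a gene entering in this way had to differ. As a description, its fitted log2 fold change was 3.30 ± 0.66 (SE, adjusted p = 0.0106, edgeR), and 2.85 without both LKB1-deficient replicates 2 and 4 (adjusted p = 0.0972, edgeR). Beside it, the summed mast cell and basophil markers were also higher in LKB1-deficient libraries, 13.2 to 40.5 CPM against 7.02 to 10.6 CPM in controls. Of 4 tested markers 2 were called higher (0 to 3 with single libraries left out), against 12.4% of all genes tested. These were Il1rl1, at 9.09 CPM in LKB1-deficient and 3.44 CPM in control cells on average, and Gata2, at 5.22 and 1.23 CPM. Both calls ended without LKB1-deficient replicates 2 and 4 (adjusted p = 0.287 and 0.686, edgeR). The part of mast cells and basophils in the Tnfrsf8 counts was not tested.

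For 4-1BB, OX40 and GITR the groups overlapped, and LKB1-deficient replicates 2 and 4 were the lower libraries of their group. Tnfrsf9, encoding 4-1BB, a marker of recently activated CD8+ T cells, had 825, 513, 1005 and 591 CPM in LKB1-deficient replicates 1 to 4, against 702, 860, 1088 and 942 CPM in control replicates 1 to 4. The values of LKB1-deficient replicates 2 and 4 were below all controls, and those of replicates 1 and 3 were inside the control range. Tnfrsf9 differed by a log2 fold change of -0.29 ± 0.23 (SE, adjusted p = 0.369, edgeR) over all libraries and 0.03 without LKB1-deficient replicates 2 and 4 (adjusted p = 0.938, edgeR). Tnfrsf4, encoding OX40, had 308, 209, 343 and 241 CPM in LKB1-deficient replicates 1 to 4, against 216, 300.2, 341 and 416 CPM in control replicates 1 to 4. LKB1-deficient replicates 2 and 4 were again the lower ones of their group, and control replicate 1 was as low as they were. Its log2 fold change was -0.21 ± 0.22 (SE, adjusted p = 0.513, edgeR), and 0.04 without LKB1-deficient replicates 2 and 4.

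Tnfrsf18, encoding GITR, lies 9552 bases from Tnfrsf4 on chromosome 4 (156026164 to 156028895, plus strand; Tnfrsf4 at 156013843 to 156016612, plus strand). It had 492, 457, 558 and 435 CPM in LKB1-deficient replicates 1 to 4, against 365, 424, 493 and 404 CPM in control replicates 1 to 4. The highest value was in LKB1-deficient replicate 3 and the lowest in control replicate 1, with overlap between the groups. Tnfrsf18 differed by a log2 fold change of 0.20 ± 0.15 (SE, adjusted p = 0.328, edgeR) and lay above 0 in all 20 refits. With each library's trend on transcript length removed it was 0.49 and passed (adjusted p = 0.0288, edgeR). The longest annotated transcripts of Tnfrsf18 and Tnfrsf4 are 1189 and 1090 bases. Tnfrsf4 moved to 0.09 in the same refit (adjusted p = 0.739, edgeR).

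CD27, the costimulatory receptor for CD70 that naive T cells already carry, was lower on average but did not pass. Cd27 had 122, 153, 224 and 122 CPM in LKB1-deficient replicates 1 to 4, against 293, 259, 219 and 177 CPM in control replicates 1 to 4. LKB1-deficient replicates 1, 2 and 4 were below all controls, and replicate 3 lay inside the control range. Cd27 averaged 155 ± 48.0 CPM in LKB1-deficient and 237 ± 50.1 CPM in control cells (SD, n = 4 each; log2 fold change -0.60 ± 0.23, SE; adjusted p = 0.077, edgeR). It passed without LKB1-deficient replicate 3 (log2 fold change -0.85, adjusted p = 0.0172, edgeR), with upper quartile scaling (adjusted p = 0.0451, edgeR) and with total count scaling (adjusted p = 0.0355, edgeR). Under these scalings the median over all genes stood at log2 fold changes of -0.10 and -0.16, and Cd27 at -0.69 and -0.75. Other refits made the difference in Cd27 smaller. It was -0.39 in EU libraries alone (identifiers of replicates 2 to 4; adjusted p = 0.276, edgeR) and -0.41 with the length trend removed (adjusted p = 0.237, edgeR). Without both LKB1-deficient replicates 2 and 4 it was -0.44 (adjusted p = 0.391, edgeR).

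Cd27 lies on chromosome 6 (125232622 to 125237010, minus strand) inside the span of Vamp1, a gene of vesicle fusion on the opposite strand. Vamp1 averaged 2.69 ± 0.523 CPM in LKB1-deficient and 6.26 ± 1.19 CPM in control cells (SD, n = 4 each), and was 2.26-fold lower (adjusted p = 0.012, edgeR). The libraries keep the strand, but the labels do not say whether the counting used it, so reads of these genes may not be fully told apart. The call of Vamp1 ended without both LKB1-deficient replicates 2 and 4 (adjusted p = 0.11, edgeR). Tapbpl, a regulator of antigen presentation 762 bases from Cd27, averaged 102 ± 12.0 CPM in LKB1-deficient and 139 ± 22.3 CPM in control cells (SD, n = 4 each; adjusted p = 0.0579, edgeR), and passed in 5 of 20 refits, namely DESeq2, upper quartile and total count scaling, a minimum mean CPM of 10 and without control replicate 4 (adjusted p = 0.0342, 0.0229, 0.016, 0.0455 and 0.0416).

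ICOS, of the CD28 family, is induced by activation and binds ICOS ligand on antigen-presenting cells. Icos (chromosome 1, 60977927 to 61000320, plus strand) had 4.22, 3.5, 3.62 and 1.89 CPM in LKB1-deficient replicates 1 to 4, against 6.02, 4.96, 5.30 and 5.33 CPM in control replicates 1 to 4. Every LKB1-deficient library was below every control, with LKB1-deficient replicate 4 the lowest. Icos averaged 3.31 ± 0.997 CPM in LKB1-deficient and 5.40 ± 0.446 CPM in control cells (SD, n = 4 each; log2 fold change -0.70 ± 0.25, SE), and with an adjusted p of 0.0643 by edgeR it did not pass. It passed with total count scaling (log2 fold change -0.85, adjusted p = 0.0475, edgeR) and, at the threshold's edge, with upper quartile scaling (log2 fold change -0.79). Without both LKB1-deficient replicates 2 and 4 the log2 fold change of Icos was -0.47 (adjusted p = 0.292, edgeR).

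Cd28 (chromosome 1, 60716800 to 60773359, plus strand), the receptor that the stimulating antibody binds, was at the limit of detection. It had 1, 0, 0 and 0 counts in LKB1-deficient replicates 1 to 4 and 6, 5, 9 and 1 counts in control replicates 1 to 4. Pooled, 1 count in LKB1-deficient and 21 counts in control libraries correspond to 0.0556 and 0.5 CPM of the pooled gene counts, a ratio of 0.111 (exact 95% interval 0.00269 to 0.692, counting error only). The gene did not pass the count filter. An exact two-sided permutation test of its log2(CPM + 0.5) values gave p = 0.0571, where 4 libraries against 4 allow no p below 0.0286. The share of Cd28 RNA that falls in the counted 3' end was not tested, so these counts do not measure how much CD28 the cells carried.

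Ctla4, the inhibitory receptor that competes with CD28, lies 62095 bases from Icos in the same cluster. It had 16.9, 1.75, 26.4 and 5.39 CPM in LKB1-deficient replicates 1 to 4, against 22.7, 40.0, 30.0 and 27.0 CPM in control replicates 1 to 4. LKB1-deficient replicates 2 and 4 were far below all other libraries and LKB1-deficient replicate 3 lay among the controls. Its log2 fold change of -1.18 ± 0.53 (SE) did not pass (adjusted p = 0.125, edgeR), passed without LKB1-deficient replicate 3 (-1.91, adjusted p = 0.0263, edgeR), and was -0.44 without LKB1-deficient replicates 2 and 4.

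**Figure D3:**
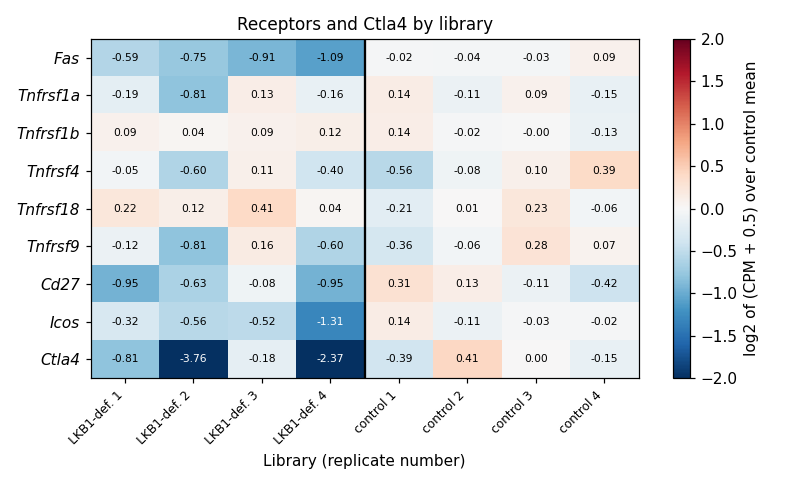
Each cell gives the log2 of CPM + 0.5 of a receptor (rows; Cd28 and Tnfrsf8 left out for their low counts, Ctla4 added) in a library (columns, LKB1-deficient at left) over the mean of the controls. LKB1-deficient replicates 2 and 4 are low for Tnfrsf9, Tnfrsf4 and Ctla4, while Fas is between -1.09 and -0.59 in all 4 LKB1-deficient libraries.

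LKB1-deficient replicates 2 and 4 were lower than replicates 1 and 3 for Tnfrsf4, Tnfrsf18, Tnfrsf9 and Ctla4, and genes that adjoin these receptors showed the same order. Sdf4, a calcium-binding protein of the secretory pathway whose gene ends 233 bases before Tnfrsf4 on the same strand, had 411, 212, 477 and 293 CPM in LKB1-deficient replicates 1 to 4, against 301, 386, 490 and 489 CPM in control replicates 1 to 4 (adjusted p = 0.482, edgeR). Park7, encoding the redox protein DJ-1, 125 bases from Tnfrsf9, had 235, 143, 281 and 201 CPM in LKB1-deficient replicates 1 to 4, against 220, 236, 273 and 290.1 CPM in control replicates 1 to 4 (adjusted p = 0.392, edgeR). Icos had this order too, and Fas, Tnfrsf1a, Tnfrsf1b, Tnfrsf8 and Cd27 did not. Camta1, which overlaps Tnfrsf9 (chromosome 4, 150914562 to 150946102, plus strand) on the opposite strand, averaged 25.3 ± 2.45 CPM in LKB1-deficient and 32.0 ± 2.87 CPM in control cells (SD, n = 4 each; adjusted p = 0.0828, edgeR), and passed without LKB1-deficient replicate 3 (adjusted p = 0.0454, edgeR) and with the length trend removed (log2 fold change -0.81, against -0.33 before; adjusted p = 0.0262, edgeR). As with Cd27 and Vamp1, reads of Tnfrsf9 and Camta1 may not be fully told apart. Ltbr, the lymphotoxin beta receptor gene near Tnfrsf1a and Cd27, had 3, 5, 8 and 4 counts in LKB1-deficient replicates 1 to 4 and 1, 2, 0 and 1 counts in control replicates 1 to 4, too few to be tested. Vps13d, next to Tnfrsf1b, averaged 11.1 CPM in LKB1-deficient and 10.7 CPM in control cells (adjusted p = 0.802, edgeR), and was called lower with the length trend removed (log2 fold change -0.69, adjusted p = 0.0351, edgeR). The other nearest genes, Scnn1a, Plekhg6, Uts2, Ttll10, Tuba3a and Acta2, had at most 1 count in any library.

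**Figure D4:**
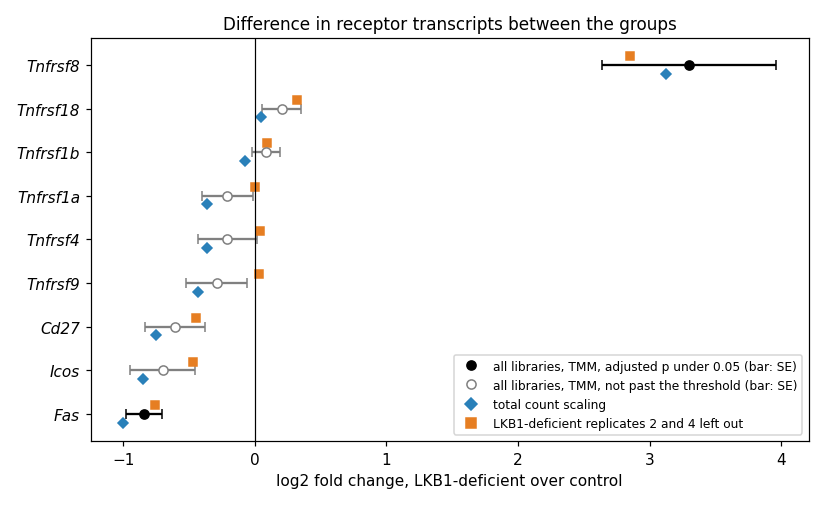
Log2 fold change, LKB1-deficient over control, of the 9 tested receptors (circles, filled where the adjusted p is under 0.05, with bars of 1 SE), with total count scaling (diamonds) and without LKB1-deficient replicates 2 and 4 (squares). Fas stays between -1.0 and -0.76 across the 3 settings, while Tnfrsf9 and Tnfrsf4 lie near 0 without these replicates.

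Ratios of receptors that share a ligand, a locus or a signalling route were compared within libraries. For 6 pairs, the log2 ratio of CPM + 0.5 was tested with an exact two-sided permutation test, adjusted over the 6 pairs, and none passed. With 4 libraries against 4 the p cannot be below 0.0286, so a pair that differed alone could reach no adjusted p below 0.171. The pseudocount makes the ratios of low genes depend on it and on library scaling. TNFR2 over TNFR1 transcripts (Tnfrsf1b to Tnfrsf1a) had a mean log2 ratio of 2.26 ± 0.37 in LKB1-deficient and 1.93 ± 0.08 in control libraries (SD, n = 4 each; exact permutation p = 0.114, adjusted p = 0.171), and the difference of 0.34 became 0.17 without LKB1-deficient replicate 2. Tnfrsf4 to Tnfrsf18, the adjacent OX40 and GITR genes, had -0.84 ± 0.21 in LKB1-deficient and -0.44 ± 0.34 in control libraries (exact permutation p = 0.0857, adjusted p = 0.171), and the difference of -0.40 became -0.24 without control replicate 4. These ratios count 3' tags and set no level of one receptor against another. Fas to Tnfrsf1a, the death domain receptors, had 0.89 ± 0.51 in LKB1-deficient and 1.48 ± 0.18 in control libraries (exact permutation p = 0.0857, adjusted p = 0.171). Tnfrsf8 to Tnfrsf1b, the adjacent CD30 and TNFR2 genes, differed by 1.87, a size that was 2.99 with a pseudocount of 0.1 and 0.87 with 2; since Tnfrsf8 was kept for its LKB1-deficient libraries alone, this is a description. Tnfrsf9 to Cd27 differed by 0.30 (exact permutation p = 0.457, adjusted p = 0.548), which became 0.08 when control replicate 1 was left out, and 0.13 or 0.47 when LKB1-deficient replicate 1 or 2 was. Icos to Cd28 differed by 0.04 (exact permutation p = 0.914, adjusted p = 0.914), by 1.07 with a pseudocount of 0.1 and by -0.27 with 2, so that its sign and size turn on the pseudocount.

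Of 12 genes for ligands of these receptors, 10 were tested, 2 were higher in LKB1-deficient cells, 1 was lower and 7 did not pass. The background was 12.4% higher and 10.1% lower over all genes tested. The ligand genes had a median log2 fold change of 0.69 against 0.00 over all genes. The 2 higher ones were Fasl, described above, and Lta, encoding lymphotoxin alpha, which binds TNFR1 and TNFR2. Lta had 324, 343, 152 and 280.1 CPM in LKB1-deficient replicates 1 to 4, against 102, 135, 146 and 168 CPM in control replicates 1 to 4 (1.99-fold higher, adjusted p = 0.0221, edgeR). LKB1-deficient replicate 3 lay among the controls, and the call ended without LKB1-deficient replicate 2 or 4 or control replicate 1 or 3 (adjusted p = 0.0625, 0.0607, 0.0511 and 0.055, edgeR). Without both LKB1-deficient replicates 2 and 4 the adjusted p was 0.171 (edgeR). Ltb, encoding lymphotoxin beta, was listed with Lta although the heterotrimer they form binds the lymphotoxin beta receptor. It had 66.7, 43.1, 61.9 and 21.6 CPM in LKB1-deficient replicates 1 to 4, against 210, 149, 114 and 126 CPM in control replicates 1 to 4, with no overlap (3.09-fold lower, adjusted p = 0.01, edgeR; adjusted p = 0.0542 without LKB1-deficient replicates 2 and 4). Without LKB1-deficient replicate 4 neither Fasl nor Lta was called. Tnfsf8, the CD30 ligand, singled out after its values were seen as the partner of Tnfrsf8, had 67.2, 193, 79.2 and 138 CPM in LKB1-deficient replicates 1 to 4, against 66.0, 148, 53.4 and 32.6 CPM in control replicates 1 to 4, with overlap (adjusted p = 0.299, edgeR).

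Of 20 other TNF family receptors in the table, 8 were tested, 1 was higher (Tnfrsf10b, above), 1 was lower and 6 did not pass. Among all genes tested, 12.4% were higher and 10.1% lower. These receptors had a median log2 fold change of -0.17. The lower one was Tnfrsf13c, the BAFF receptor better known from B cells, with 3.91 CPM in LKB1-deficient and 10.4 CPM in control cells on average (adjusted p = 0.0425, edgeR). Its call ended without LKB1-deficient replicate 1, 2 or 4 or control replicate 1, 2 or 3 (adjusted p = 0.0628, 0.107, 0.12, 0.0639, 0.0911 and 0.0812, edgeR), and it was called in 7 of 19 refits. Beside it, the B cell marker Cd79b averaged 4.91 CPM in LKB1-deficient and 9.41 CPM in control cells (adjusted p = 0.0164, edgeR; adjusted p = 0.104 without LKB1-deficient replicates 2 and 4), and the part of B cells in the Tnfrsf13c counts was not tested. Among 16 other costimulatory and inhibitory receptors of the immunoglobulin type in the table, 14 were tested, 3 were lower, none was higher (edgeR; none at an unadjusted p of 0.05, by DESeq2 or by limma-voom) and 11 did not pass, with a median of -0.30. Pdcd1, encoding the inhibitory receptor PD-1, had 28.7, 19.5, 35.4 and 17.3 CPM in LKB1-deficient replicates 1 to 4, against 73.2, 68.0, 60.5 and 50.0 CPM in control replicates 1 to 4 (2.47-fold lower, adjusted p = 0.00636, edgeR), and was called in all 20 refits. Cd96, a receptor for nectin-family ligands, had 41.4, 38.5, 56.4 and 32.4 CPM in LKB1-deficient replicates 1 to 4, against 76.5, 82.0, 85.3 and 93.0 CPM in control replicates 1 to 4 (1.99-fold lower, adjusted p = 0.00605, edgeR). The groups did not overlap for either gene, and the adjusted p of Cd96 was 0.0544 without LKB1-deficient replicates 2 and 4. The third was Slamf6, a receptor of the SLAM family, at 4.50, 2.91, 2.52 and 1.08 CPM in LKB1-deficient replicates 1 to 4, against 29.3, 15.8, 7.04 and 8.44 CPM in control replicates 1 to 4 (adjusted p = 0.0132, edgeR); it was named after its values were seen.

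Downstream of the TNF family receptors, 30 TRAF and related adaptor genes were tested, 1 was higher, 2 were lower and 27 did not pass. For comparison, 12.4% of all genes tested were higher and 10.1% lower. The adaptor genes had a median log2 fold change of 0.06. Tank, a TRAF-binding protein that limits NF-kB activation, averaged 58.6 CPM in LKB1-deficient and 92.1 CPM in control cells (1.57-fold lower, adjusted p = 0.00567, edgeR; adjusted p = 0.0524 without LKB1-deficient replicates 2 and 4). Siva1, whose product binds the cytoplasmic tail of CD27, averaged 125 CPM in LKB1-deficient and 168 CPM in control cells (adjusted p = 0.0417, edgeR). Siva1 was called in 9 of 20 refits. Its call ended without LKB1-deficient replicate 2 or 4 or control replicate 1, 3 or 4 (adjusted p = 0.0973, 0.114, 0.0695, 0.0965 and 0.111, edgeR), with a term for the identifiers' first letters (adjusted p = 0.0599, edgeR) and with the length trend removed, where the log2 fold change was -0.17 against -0.43 before (adjusted p = 0.282, edgeR). Tnip2, an inhibitor of NF-kB signalling, averaged 27.9 CPM in LKB1-deficient and 19.2 CPM in control cells (1.45-fold higher, adjusted p = 0.0201, edgeR) and was called in 15 of 20 refits. It was not called without control replicate 3 (adjusted p = 0.0686, edgeR), without LKB1-deficient replicates 2 and 4 (adjusted p = 0.0544, edgeR), in EU libraries alone (adjusted p = 0.0595, edgeR), or with upper quartile or total count scaling (adjusted p = 0.0504 and 0.115, edgeR). The number of adaptor genes called higher ranged between 0 and 4 when single libraries were left out, and the number called lower between 1 and 3. Of 11 genes for NF-kB subunits and their inhibitors, none passed in either direction by edgeR; 2 were higher and 1 was lower at an unadjusted p of 0.05, DESeq2 called 2 higher and none lower, and limma-voom called none (median 0.18).

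Downstream of CD28 and ICOS, 27 of 29 listed signalling genes were tested, 6 were higher, 2 were lower and 19 did not pass. Over all genes tested, 12.4% were higher and 10.1% lower. The median log2 fold change of this list was 0.11. Rc3h1, encoding Roquin-1, an RNA-binding protein known to repress Icos messenger RNA, had 38.8, 53.3, 35.1 and 58.2 CPM in LKB1-deficient replicates 1 to 4, against 24.3, 29.1, 19.9 and 17.0 CPM in control replicates 1 to 4. The groups did not overlap, and Rc3h1 was 2.04-fold higher (adjusted p = 0.0118, edgeR; adjusted p = 0.116 without LKB1-deficient replicates 2 and 4). With the length trend removed its log2 fold change was 0.43, against 1.03 before (adjusted p = 0.0355, edgeR). Pdpk1, the kinase that phosphorylates AKT, averaged 98.5 CPM in LKB1-deficient and 59.1 CPM in control cells (1.66-fold higher, adjusted p = 0.016, edgeR; adjusted p = 0.07 with the length trend removed). Of the lower genes, Rltpr, an actin-associated protein needed for CD28 signalling, averaged 24.4 CPM in LKB1-deficient and 39.6 CPM in control cells (adjusted p = 0.0423, edgeR), and lost its call when any of the 4 control libraries or LKB1-deficient replicates 1, 2 or 4 was left out (adjusted p at most 0.0953, edgeR). The number of these genes called higher ranged between 2 and 7, and the number called lower between 0 and 2, when single libraries were left out, and neither direction kept a call without both LKB1-deficient replicates 2 and 4.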

How the data were processed

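The 8 mouse libraries, 4 LKB1-deficient and 4 control, were grouped by their titles. What the authors deposited are raw counts of reads for each gene symbol, in a table for each library. Reads were aligned to mm10 with STAR, per the submitters' processing notes. The counting program, its strand setting and its annotation are not stated there or in the labels. The tables' 5 last lines, which name no gene, were left out of the gene counts and the tests. No molecular identifiers are stated, so counting intervals cover counting error only.

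The counts were tested with edgeR 4.0.16 under R 4.3.3: filterByExpr (minimum count 10, minimum total 15), TMM scaling and the robust quasi-likelihood test without covariates, Benjamini-Hochberg adjusted over all genes tested, with a threshold of 0.05; SEs are the absolute log2 fold change over the square root of F. The procedure was tested on simulated data. Member ratios used a pseudocount of 0.5. Named genes were all members, neighbours within 100 kb, and up to 2 genes per direction with the smallest p in each list; some genes that this rule takes are left out of the text. Members and lists were chosen with earlier results of these data known. No library was a duplicate of another in its group (chi-square over degrees of freedom 11.6 to 49.05).

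Alternatives were DESeq2 1.42.0, limma-voom (limma 3.58.1), total count and upper quartile scaling, no filter, a minimum mean CPM of 10, a replicate block, a term for the identifiers' first letters (ET for replicate 1, EU for replicates 2 to 4), EU libraries alone, each library left out, LKB1-deficient replicates 2 and 4 left out, thinning to 3454388 counts and an adjusted p of 0.01. Removal of each library's lowess trend on transcript length (span 0.3, 96.5% of tested genes had a length) was added after the data were seen. Coordinates come from GENCODE vM21 on GRCm38, the assembly also called mm10, and upstream sequences from RefSeq on GRCm38.p6.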

Additional observations from a re-analysis of the deposited data

Results flagged for a closer look

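Groups of 4 libraries were checked over the CPM of the 10 members and the log2 ratios of the 6 member pairs. Among these 32 groups a library stood apart from the others of its group in 2. Chance alone puts about 1 in 20 groups past this limit. Tnfrsf8 was at 4.313 CPM in LKB1-deficient replicate 4, against 1.574 to 2.04 CPM in the other LKB1-deficient libraries; without that library its log2 fold change was 2.91. Cd28 was at 0.2813 CPM in LKB1-deficient replicate 1, which is 1 count, against 0 in the other LKB1-deficient libraries.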

How the results depend on the processing

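Over 20 refits, 165 of 177 values of the receptors kept their direction and their side of the threshold, 7 changed their call (Tnfrsf8, Tnfrsf18, Cd27 and Icos, given with their values in the report) and 5 changed sign without passing (Tnfrsf1b, Tnfrsf4 and Tnfrsf9). The 1 receptor called higher, Tnfrsf8, became 0 with a minimum mean CPM of 10 or after thinning, where it was not tested, 0 without both LKB1-deficient replicates 2 and 4, and 0 at an adjusted p of 0.01; the count was 2 with the length trend removed, where Tnfrsf18 joined it. The 1 receptor called lower, Fas, became 3 with upper quartile or total count scaling, where Cd27 and Icos joined it, and 1 to 2 when single libraries were left out. Of all genes tested, 1286 were called higher and 1051 lower. Total count scaling gave 829 higher and 1576 lower genes and upper quartile scaling 1023 and 1446, so that lower calls outnumbered higher ones, EU libraries alone gave 1172 and 666, an adjusted p of 0.01 248 and 189, leaving out LKB1-deficient replicates 2 and 4 gave 162 and 98, and single libraries left out gave 560 to 1472 and 441 to 1353. A replicate block gave 1075 higher and 827 lower genes and 1 higher and 1 lower receptor. It ended the call of Siva1 (adjusted p = 0.0859, edgeR). Between same-numbered libraries, deviations of log CPM from the group mean of each gene correlated at -0.251, 0.291, 0.3 and -0.086. The numbers were therefore not taken as pairs. Vps13d, beside Tnfrsf1b, was called lower with the length trend removed (-0.6871, adjusted p = 0.0351, edgeR) and also took the other sign, without passing, with upper quartile and total count scaling and without LKB1-deficient replicates 2 and 4. The cause of these shifts was not tested, though leaving out 2 libraries makes the group smaller. At 3454388 to 6356125 gene counts per LKB1-deficient library, 3 counts are 0.472 to 0.868 CPM before TMM scaling, above all Cd28 values of that group.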
